A study of Mus musculus with 12 samples.

Results

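Described here are 9 small leucine-rich proteoglycan genes out of the 20368 in the deposited table: *Fmod* (fibromodulin), *Lum* (lumican), *Dcn* (decorin), *Ogn* (osteoglycin), *Omd* (osteomodulin), *Prelp* (prolargin), *Aspn* (asporin), *Kera* (keratocan) and *Podn* (podocan). The proteins of this family are secreted into the extracellular matrix, built from leucine-rich repeats and mostly carrying chondroitin, dermatan or keratan sulphate chains. They bind collagen fibrils and set how thick and how regular the fibrils become, and several of them, decorin and fibromodulin among these, also bind TGF-beta. In the embryonic heart, matrix of this kind is made by the mesenchyme of the endocardial cushions and valves and by cells of the epicardium and the outflow vessels. *Fmod* was selected on measured values, its fold change and adjusted p between mutant and control hearts, because it passed the thresholds of the study at both stages, and the other 8 were added by name as relatives. The comparison of mutants with controls therefore describes these genes. The calls given for it below depend on that choice and are not an independent test of them.

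RNA was sequenced from hearts of CD1 mouse embryos at E11.5 and E12.5. Controls were *Mesp1Cre*;*Hira*+/fl and mutants *Mesp1Cre*;*Hira*-/fl, with 3 libraries in each of the 4 groups. All 12 libraries thus carried the Cre and a floxed *Hira* allele. *Mesp1Cre* is active in the earliest cardiac mesoderm, so controls kept 1 working allele of *Hira*, which encodes a chaperone of histone H3.3, in that lineage, and mutants had 1 null allele in every cell and lost the other only where the Cre had acted. Neural crest cells, which also enter the outflow tract, are outside this lineage and keep the floxed allele. The labels do not say whether a library is 1 heart or several, so p-values measure the spread between these libraries only. In whole hearts, fewer cells of a type and less RNA per cell cannot be told apart.

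Read counts per library totalled 11994148 to 17483982. The *Hira* count covers the whole gene and not the deleted part alone, and it did not separate the groups, with 68.3 to 85.4 CPM (reads scaled to 1000000 per library) in E11.5 controls and 56.6 to 74.4 CPM in E11.5 mutants (log2 fold change of mutants against controls -0.26, SE 0.14, edgeR adjusted p = 0.607). The E12.5 groups overlapped as well (-0.01, SE 0.12, adjusted p = 0.962). By Y-linked reads, 3 of 3 E11.5 controls were male, against 1 of 3 libraries in each other group. With sex as a covariate, the genotype values at E11.5 thus rest on the only male mutant of that stage, replicate 3. The values between stages in controls then rest on the only male E12.5 control, also replicate 3. The defining cardiomyocyte markers were high in all libraries (18141 to 25963 CPM summed over 8 genes), and each of the 5 skeletal muscle markers had a mean under 1 CPM. E11.5 mutant replicate 3 was the library farthest from its group (chi-square per gene of 43.2 and 49.6 against the other 2 libraries, and 6.71 to 28.8 in all other pairs of replicates) and also the least deeply sequenced. In addition, E11.5 control replicate 2 stood apart in 3 of the genes described here, so values that rest on either are given with and without it.

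Levels were compared between genes as RPKM, which is CPM divided by the length of the gene in kilobases. *Dcn*, the decorin core protein that decorates type I collagen fibrils, was the most abundant member, and *Lum*, the lumican gene known from cornea and other fibrillar matrix, the next. *Dcn* was at 54.0 ± 9.22 RPKM and *Lum* at 31.8 ± 15.5 RPKM in E11.5 controls (mean ± SD, n = 3 here and below). *Fmod* followed with 13.7 ± 1.75 RPKM, *Ogn* with 4.36 ± 2.20 RPKM, *Aspn* with 1.17 ± 1.14 RPKM and *Omd* with 0.714 ± 0.349 RPKM. *Podn* (0.320 ± 0.115 RPKM), *Prelp* (0.206 ± 0.0930 RPKM) and *Kera* (0.0462 ± 0.0401 RPKM) were close to the limit of detection. The ranges of *Dcn* and *Lum* overlapped in this group, as did those of *Lum* and *Fmod* and those of *Ogn* and *Aspn*. Those of *Aspn* and *Omd* and those of *Podn* and *Prelp* overlapped as well. *Dcn* and *Lum* led and *Kera* came last in all 4 groups. In E12.5 mutants the order of the next pair turned, with *Ogn* at 5.44 ± 0.731 RPKM and *Fmod* at 4.84 ± 0.594 RPKM, ranges that overlapped.

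Summed over the 9 genes, the level was 89.8 to 118 RPKM in E11.5 controls and 44.7 to 58.9 RPKM in E11.5 mutants, and 109 to 121 RPKM in E12.5 controls and 72.3 to 90.6 RPKM in E12.5 mutants. The groups did not overlap at either stage. *Dcn* and *Lum* made up most of the sum in every library, so the sum describes these 2 genes before any other. *Fmod* gave 10.7% to 15.3% of the sum in E11.5 controls but 5.45% to 6.51% in E12.5 mutants, the highest and the lowest shares of the 4 groups.

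**Figure D1:**
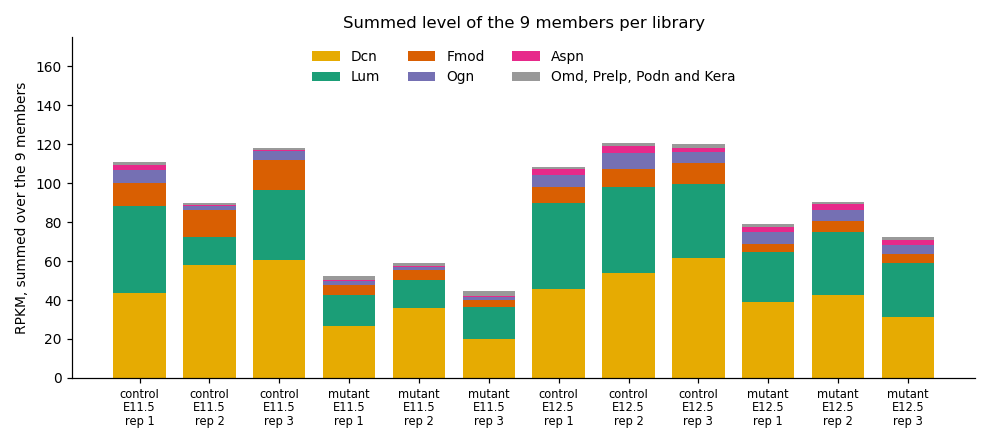
The bars give RPKM summed over the 9 proteoglycan genes (vertical axis) in each of the 12 libraries (horizontal axis), split by gene. Mutant bars are shorter than control bars of the same stage at both stages, and *Dcn* and *Lum* fill most of each bar.

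Fibromodulin binds type I collagen at a site shared with lumican and is best known from tendon. *Fmod* (ENSMUSG00000041559) lies on chromosome 1 at chr1:134037254-134048277 on the plus strand (GRCm38). *Fmod* stood at 34.1, 39.4 and 44.1 CPM in E11.5 controls (replicates 1, 2 and 3), from 524, 615 and 631 reads. The E11.5 mutants had 14.9, 14.6 and 10.4 CPM, from 230, 242 and 121 reads. In E12.5 controls it was at 23.2, 27.5 and 30.05 CPM, and in E12.5 mutants at 12.3, 15.7 and 13.4 CPM. Every mutant library was below every control library, also across stages, and the lowest control library (23.2 CPM) was above the highest mutant library (15.7 CPM). The log2 fold change, mutant minus control, was -1.55 (SE 0.17, 2.94-fold lower) at E11.5 and -0.96 (SE 0.13, 1.95-fold lower) at E12.5. At E11.5 it was -1.42 (SE 0.15) without mutant replicate 3. With the sex of the embryo as a covariate it was -1.90 (SE 0.22), a value that sets mutant replicate 3 alone against the controls. In edgeR, *Fmod* was the only member past both thresholds (adjusted p of at most 0.05 and 1.5-fold) at E11.5, where 0.115% of 12197 genes were called and 0.0656% were called lower. The same held at E12.5, where 2.95% of 12257 genes were called and 1.36% were called lower. Both counts follow from the way the genes were chosen. At E11.5 the other tested members missed the adjusted p, and at E12.5 *Lum* and *Dcn* missed the fold threshold alone. With 1 library left out, *Fmod* was called at E12.5 each time, but at E11.5 without mutant replicate 3 only, the other 5 fits giving -1.64 to -1.47. At E11.5 *Dcn* and *Ogn* also passed both thresholds by DESeq2 and with all 12 libraries in one edgeR fit, and *Lum* did so without control replicate 2. At E12.5 *Dcn* passed without control replicate 1 or mutant replicate 2, and *Lum* without control replicate 3 or mutant replicate 2.

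**Figure D2:**
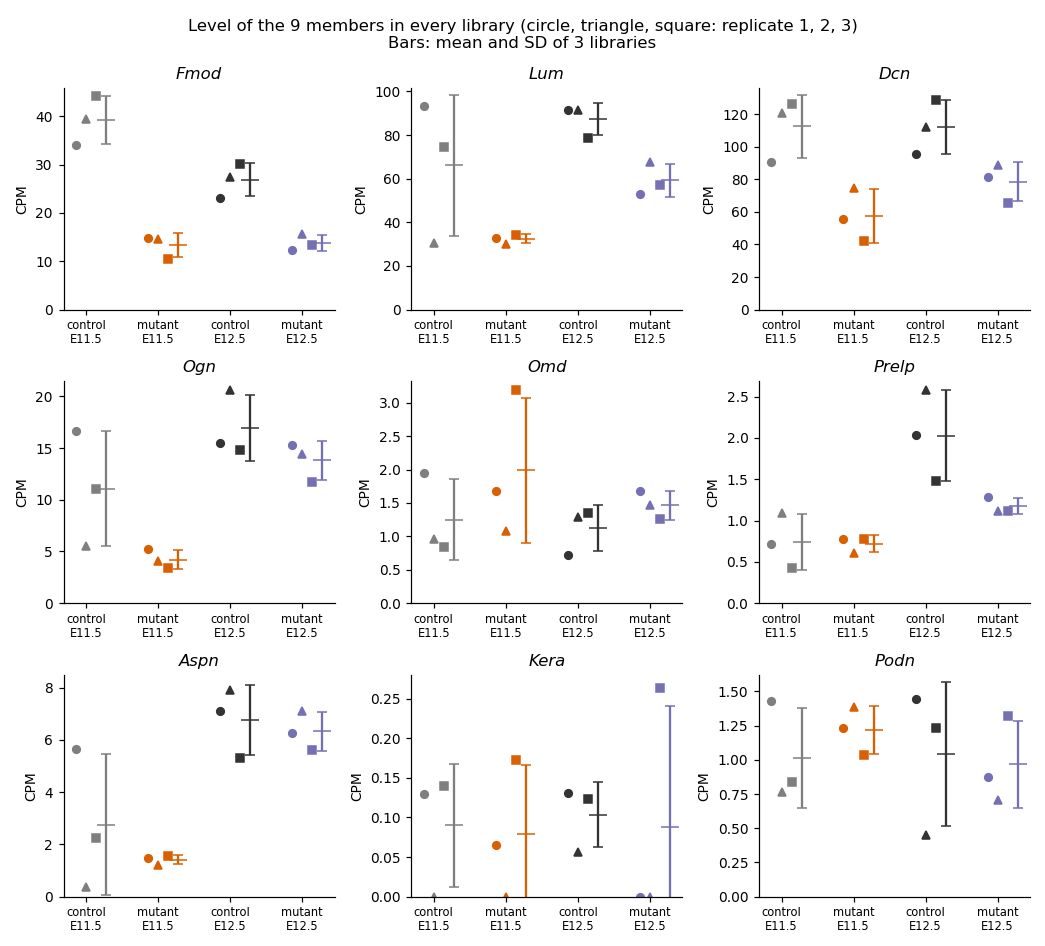
Each panel gives 1 gene, with CPM on the vertical axis and the 4 groups on the horizontal axis. Circles, triangles and squares are replicates 1, 2 and 3, and bars give the mean and SD of 3 libraries. *Fmod* mutant libraries all lie below the control libraries, while *Lum*, *Ogn* and *Aspn* spread widely among E11.5 controls with replicate 2 the lowest.

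The promoters of *Fmod*, of *Ogn* and of *Aspn* are shown because *Fmod* leads the genotype comparison and the other two lead the change with stage. The sequences are the 250 bases before the start in RefSeq (GRCm38.p6), all on the plus strand, at chr1:134037004-134037253, chr13:49607765-49608014 and chr13:49544193-49544442. A sequence was matched for 7 of the 9 members, all but *Lum* and *Dcn*. Capitals mark matches to 4 motifs, searched on both strands with overlapping matches counted separately. The motif GAGAG, read as CTCTC on the opposite strand, was searched because the study described GAGA-rich DNA at sites bound by HIRA. The motif TATAAA, read as TTTATA on the opposite strand, is the letter pattern of the TATA box. The motif AAGTG, read as CACTT on the opposite strand, is the core bound by NKX2-5, and the motif CAGCTG, the same on both strands, is an E-box.
Fmod: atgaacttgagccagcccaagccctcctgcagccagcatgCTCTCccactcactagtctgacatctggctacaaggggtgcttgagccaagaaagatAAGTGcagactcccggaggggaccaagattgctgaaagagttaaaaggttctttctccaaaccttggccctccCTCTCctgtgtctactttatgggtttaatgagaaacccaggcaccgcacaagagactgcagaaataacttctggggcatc
Ogn: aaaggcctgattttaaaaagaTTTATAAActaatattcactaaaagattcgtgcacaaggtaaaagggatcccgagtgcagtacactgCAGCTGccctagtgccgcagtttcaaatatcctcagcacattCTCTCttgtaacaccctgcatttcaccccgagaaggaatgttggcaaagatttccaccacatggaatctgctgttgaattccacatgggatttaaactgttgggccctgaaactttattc
Aspn: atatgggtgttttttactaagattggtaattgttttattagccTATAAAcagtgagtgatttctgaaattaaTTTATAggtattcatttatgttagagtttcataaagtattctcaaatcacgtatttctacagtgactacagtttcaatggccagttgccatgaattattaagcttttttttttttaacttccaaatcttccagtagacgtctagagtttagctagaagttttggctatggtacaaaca
The *Fmod* window held 2 matches to GAGAG and 1 to AAGTG, the *Ogn* window 1 to GAGAG, 1 to CAGCTG and 2 overlapping ones to TATAAA, and the *Aspn* window 2 to TATAAA. The motif GAGAG was present in 4 of the 7 member windows and in 54.6% of the 27025 promoters in the table. AAGTG was present in 4 of 7 against 40.8%, TATAAA in 2 of 7 against 13.0% and CAGCTG in 1 of 7 against 12.8%. A match is a stretch of letters and not a shown binding site.

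*Dcn* and *Lum* lie side by side on chromosome 10, with *Kera* and *Epyc*, in 202846 bases. Decorin binds collagen and TGF-beta and carries 1 chondroitin or dermatan sulphate chain. *Dcn* was at 90.6, 121 and 126 CPM in E11.5 controls and at 55.9, 74.9 and 41.9 CPM in E11.5 mutants. At E12.5 it was at 95.3, 112 and 129 CPM in controls and at 81.7, 88.5 and 65.5 CPM in mutants. At both stages every mutant library was below every control library, with the gap at E12.5 (88.5 against 95.3 CPM) the narrower. The log2 fold change at E11.5 was -0.97 (SE 0.22). It was -0.79 (SE 0.18) without mutant replicate 3, the lowest of all 12 libraries. With sex as a covariate, which rests on that replicate, it was -1.42 (SE 0.25). At E12.5 it was -0.51 (SE 0.13), a change of less than 1.5-fold.

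Lumican, a keratan sulphate proteoglycan, regulates fibril thickness in cornea, skin and heart valves. *Lum* was at 93.2, 30.4 and 74.6 CPM in E11.5 controls, and the E11.5 mutants, at 32.8, 30.2 and 34.3 CPM, overlapped with control replicate 2 only. The log2 fold change was -1.03 (SE 0.34), with -1.37 (SE 0.16) without control replicate 2 and -0.70 (SE 0.32) without control replicate 1. The E12.5 libraries did not overlap, with controls at 91.6, 91.4 and 78.8 CPM and mutants at 52.9, 67.6 and 57.2 CPM (log2 fold change -0.56, SE 0.10, just under 1.5-fold). All mutant libraries were below all control libraries for 3 of the 6 members tested at E11.5 (*Fmod*, *Dcn*, *Ogn*), as for 7.99% of all genes tested, and for 3 of 6 at E12.5 (*Fmod*, *Lum*, *Dcn*), as for 12.6%. These counts come from the comparison that chose *Fmod* and are a description.

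*Ogn*, *Omd* and *Aspn* share a stretch of chromosome 13 with *Ecm2* (119692 bases). Osteoglycin, also called mimecan, was named for bone but is made in vessel walls and heart as well. *Ogn* was at 16.7, 5.51 and 11.0 CPM in E11.5 controls and at 5.25, 4.04 and 3.37 CPM in E11.5 mutants. The lowest control library was thus only just above the highest mutant library, and the log2 fold change of -1.39 (SE 0.38) became -1.71 (SE 0.29) without control replicate 2 and -0.96 (SE 0.36) without control replicate 1. At E12.5 the groups overlapped, with 15.5, 20.6 and 14.8 CPM in controls and 15.3, 14.4 and 11.7 CPM in mutants (log2 fold change -0.30, SE 0.15).

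Asporin is a relative of decorin with a run of aspartate residues in place of a glycosaminoglycan chain, known from cartilage and periodontal ligament. *Aspn* was at 5.66, 0.384 and 2.24 CPM in E11.5 controls and at 1.49, 1.21 and 1.55 CPM in E11.5 mutants. The mutants lay inside the range of the controls, and the log2 fold change of -0.97 (SE 0.72) turned to 0.12 (SE 0.65) without control replicate 1 and was -1.49 (SE 0.45) without control replicate 2. At E12.5 it was at 7.09, 7.89 and 5.30 CPM in controls and at 6.27, 7.10 and 5.60 CPM in mutants, with a log2 fold change of -0.10 (SE 0.20).

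*Omd*, an osteoblast-associated keratan sulphate proteoglycan, was the only tested member with a value above 0, at 0.63 (SE 0.50) at E11.5 and 0.38 (SE 0.34) at E12.5. Its libraries overlapped at both stages, and the E11.5 value was 1.10 without control replicate 1, 1.35 with sex as a covariate and 0.13 (SE 0.49) without mutant replicate 3, the library with the most *Omd* (3.19 CPM against 0.722 to 1.95 CPM in the other 11 libraries). *Prelp* (a heparin-binding relative of fibromodulin, on chromosome 1 beside it), *Podn* and *Kera* (the corneal keratan sulphate proteoglycan) had a mean under 0.5 RPKM and entered no main test. *Prelp* had 6 to 46 reads, *Podn* 8 to 23 reads and *Kera* 0 to 4 reads per library. *Prelp* was at 2.03, 2.58 and 1.48 CPM in E12.5 controls and at 1.28, 1.12 and 1.12 CPM in E12.5 mutants, which did not overlap (log2 fold change -0.80, SE 0.33, with no filter on low counts). *Podn* overlapped at both stages, and *Kera* had too few reads for its level to be compared.

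**Figure D3:**
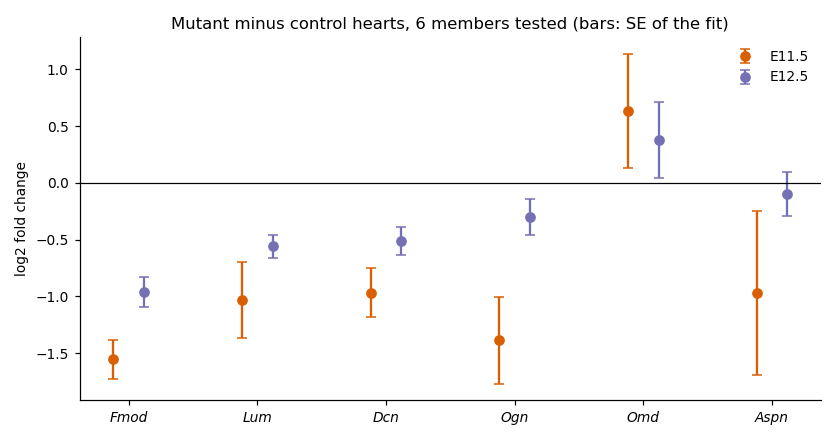
The log2 fold change (vertical axis) of mutants minus controls is given for the 6 members that passed the filter (horizontal axis) at E11.5 (orange) and E12.5 (purple), with the SE of the fit as bars. *Fmod* lies at -1.55 and -0.96, 5 of 6 genes lie below 0 at both stages, and the E12.5 point is nearer to 0 than the E11.5 point for all 6.

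The change from E11.5 to E12.5 is a contrast other than the one that chose *Fmod* and was tested. It uses the same libraries, so the values of *Fmod* between stages are not independent of that choice and are a description. In controls, *Fmod* was at 39.2 ± 5.004 CPM at the first stage and 26.9 ± 3.48 CPM at the second (log2 fold change -0.54, SE 0.13). All E12.5 controls were below all E11.5 controls, as for 18.5% of genes tested. With sex as a covariate, which differs between the stages, the value was -0.38 (SE 0.19). That value rests on E12.5 control replicate 3, the only male of its group. Leaving out 1 library at a time gave -0.63 to -0.45. *Dcn* was at 113 ± 19.2 CPM at E11.5 and 112 ± 16.7 CPM at E12.5 in controls (log2 fold change -0.01, SE 0.15, adjusted p = 0.983). *Lum* (0.40, SE 0.30), *Ogn* (0.62, SE 0.31) and *Aspn* (1.29, SE 0.58) had values above 0 that missed the test, with adjusted p of 0.380, 0.200 and 0.154, and *Omd* was at -0.15 (SE 0.43, adjusted p = 0.835). Without control replicate 2 of E11.5, *Aspn* was at 0.76, *Ogn* at 0.28 and *Lum* at 0.04. In edgeR, 0 of the 6 members passed both thresholds in controls, against 5.28% of 12252 genes, and DESeq2 called 0 members. *Fmod* missed the fold threshold alone (1.46-fold lower, edgeR adjusted p = 0.0335). It was the only member at an unadjusted p under 0.05, as 32.8% of genes were. With no filter on low counts *Prelp* passed, at 0.741 ± 0.335 CPM in E11.5 and 2.03 ± 0.549 CPM in E12.5 controls (1.44, SE 0.42, edgeR adjusted p = 0.0379), from 6 to 46 reads per library.

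In mutants, 3 of the 6 members rose from E11.5 to E12.5 past both thresholds, where 0.556% of 12238 genes were called, 0.294% of genes as higher. *Aspn* rose 4.44-fold, from 1.42 ± 0.185 to 6.33 ± 0.752 CPM (log2 fold change 2.15, SE 0.24, edgeR adjusted p = 0.0107). *Ogn* rose 3.23-fold, from 4.22 ± 0.951 to 13.8 ± 1.86 CPM (1.69, SE 0.21, adjusted p = 0.0147), and *Lum* 1.82-fold, from 32.4 ± 2.04 to 59.2 ± 7.55 CPM (0.86, SE 0.13, adjusted p = 0.0275). All 3 E12.5 mutant libraries were above all 3 E11.5 mutant libraries for each of these genes, as for 9.42% of all genes tested. *Dcn* (0.44, SE 0.20, adjusted p = 0.565) and *Omd* (-0.41, SE 0.42, adjusted p = 0.789) overlapped between stages, and *Fmod* was at 13.3 ± 2.49 and 13.8 ± 1.70 CPM (0.04, SE 0.18). With any 1 of the E12.5 mutant libraries left out, 0 of the 3 calls remained, with adjusted p from 0.0621 to 0.181, while the 3 log2 fold changes stayed at 2.06 to 2.24, 1.61 to 1.80 and 0.76 to 0.93. Without E11.5 mutant replicate 3, all 3 genes were called. *Lum* was also lost without E11.5 mutant replicate 1 (adjusted p = 0.0816) or 2 (adjusted p = 0.0903), and with all 12 libraries in one fit *Lum* (adjusted p = 0.203) and *Aspn* (adjusted p = 0.104) were lost.

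**Figure D4:**
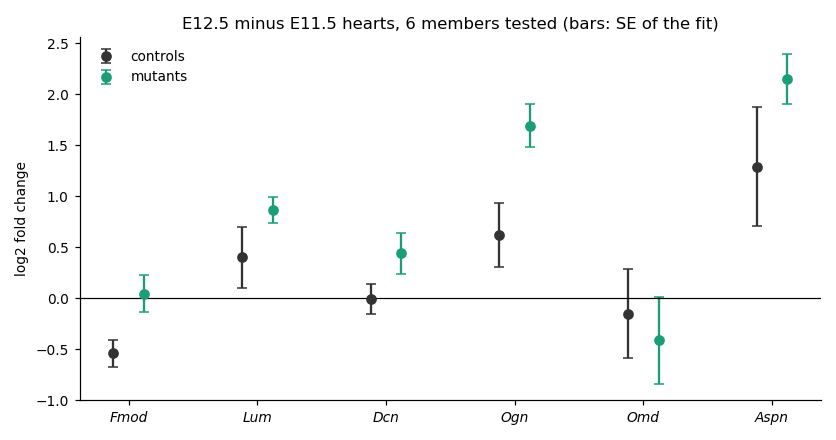
The log2 fold change (vertical axis) from E11.5 to E12.5 is given for the 6 tested members (horizontal axis) in controls (black) and mutants (green), with the SE of the fit as bars. *Aspn*, *Ogn* and *Lum* rose in mutants (2.15, 1.69 and 0.86), *Fmod* lies below 0 in controls (-0.54) and near 0 in mutants, and *Omd* is below 0 in both.

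A rise past the threshold in mutants alone does not show that the genotypes differ, and the difference between the mutant effects at the 2 stages was tested over all 12 libraries. It was 0.59 (SE 0.23) for *Fmod*, 1.08 (SE 0.44) for *Ogn*, 0.87 (SE 0.77) for *Aspn*, 0.47 (SE 0.39) for *Lum*, 0.45 (SE 0.28) for *Dcn* and -0.25 (SE 0.63) for *Omd* on the log2 scale. In edgeR, 0 of 6 members passed (adjusted p of 0.956 to 0.966), as did 0 of 12270 genes (0%), and DESeq2 also called 0 members. At an unadjusted p under 0.05 there were 2 members (*Fmod* and *Ogn*) and 551 genes, 4.49% of those tested. For *Fmod* this difference is made of the comparisons that chose it. No gene passing after adjustment does not show that the mutant effects were alike at the 2 stages.

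The members did not all vary together within groups. Among E11.5 controls, replicate 1 was 3.06 times replicate 2 for *Lum*, 3.03 times for *Ogn* and 14.7 times for *Aspn*, whereas the highest library was 1.29 times the lowest for *Fmod* and 1.39 times for *Dcn*. The coefficient of variation in this group was 48.8% for *Lum*, 50.4% for *Ogn* and 97.0% for *Aspn*, where 95% of all genes tested were under 39.3%, and it was 12.8% for *Fmod* and 17.1% for *Dcn*, against a median of 11.8%. In the other groups the same 3 genes varied by 6.29% to 22.6%. Over the 12 libraries, after the group means were taken out, Pearson's r of log2(CPM + 0.5) was 0.96 for *Lum* with *Aspn*, 0.90 for *Ogn* with *Aspn* and 0.84 for *Lum* with *Ogn*, and 0.81 for *Fmod* with *Dcn*, but -0.12 for *Fmod* with *Lum* and 0.02 for *Fmod* with *Ogn*. These r values describe 12 libraries that share a normalization and differ in depth, with the E11.5 controls spreading most in the first 3. Replicate 2 was not low in the summed marker lists for cushion mesenchyme (1879 CPM, between 1777 and 1969 CPM in the other 2) or epicardium (772 CPM, between 619 and 917 CPM). It also lay between the others for cardiomyocyte and smooth muscle markers. It was the lowest for erythroid (2341 CPM), liver (0.896 CPM), neural crest (6.79 CPM) and skeletal muscle (0.128 CPM) markers. For endothelial (939 CPM) and cartilage and tendon (434 CPM) markers it was the highest. Whether the cell mixture differed in this library was not tested.

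**Figure D5:**
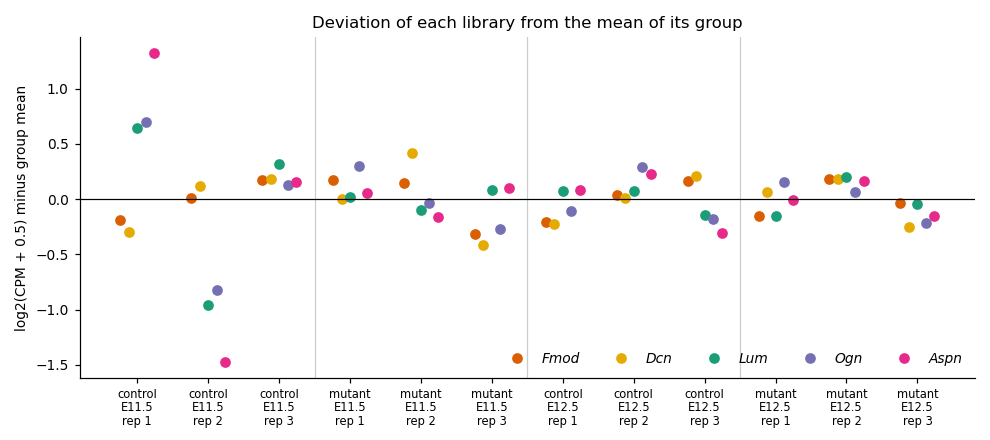
Points give log2(CPM + 0.5) of 5 genes minus the mean of the group (vertical axis) in each of the 12 libraries (horizontal axis). In E11.5 controls *Lum*, *Ogn* and *Aspn* are high in replicate 1 and low in replicate 2, where *Fmod* and *Dcn* stay near the group mean.

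The ratio of *Fmod* to *Dcn* reads within a library needs no scaling between libraries. There were 37.7, 32.6 and 34.9 *Fmod* reads per 100 *Dcn* reads in E11.5 controls and 26.7, 19.5 and 24.9 in E11.5 mutants. The E12.5 controls had 24.3, 24.5 and 23.3, and the E12.5 mutants 15.1, 17.7 and 20.5. Within each stage the groups did not overlap, and the E12.5 controls fell inside the range of the E11.5 mutants. As a ratio of 2 genes, this shows that *Fmod* and *Dcn* differed unequally and not that either was constant.

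The other 9 members of the family in the table were mostly near the limit of detection. Biglycan is the closest relative of decorin, and its level of 55.0 ± 4.72 RPKM in E11.5 controls was near that of *Dcn*, but *Bgn* is X-linked and its counts could be recovered only by common divisor, so it entered the fit with X and Y genes alone. *Bgn* was at 130, 143 and 121 CPM in E11.5 controls, 126, 114 and 110 CPM in E11.5 mutants, 172, 216 and 190 CPM in E12.5 controls and 157, 143 and 146 CPM in E12.5 mutants. It was higher at E12.5 than at E11.5 in controls (log2 fold change 0.55, SE 0.11, adjusted p = 0.0238) and lower in mutants than in controls at E12.5 (-0.38, SE 0.09, adjusted p = 0.0404), both by less than 1.5-fold. Of the controls, 3 of 3 at E11.5 and 1 of 3 at E12.5 were male. *Bgn* was not fitted with sex as a covariate or with a library left out. *Ecm2*, a matrix protein whose gene neighbours *Aspn*, rose in controls from 5.08 ± 1.49 to 10.7 ± 1.56 CPM (1.07, SE 0.23, adjusted p = 0.0256), a call that was lost with sex as a covariate (adjusted p = 0.382) and without E11.5 control replicate 1 (0.0648) or E12.5 control replicate 1 (0.126) or 2 (0.0725). It was at -0.60 (SE 0.18, adjusted p = 0.0767) in E12.5 mutants against controls. *Tsku*, which encodes tsukushi, a secreted inhibitor of BMP and Wnt signals, was at 10.4 to 16.2 CPM in all libraries and was called in no comparison, and *Epyc* (epiphycan, of cartilage) was at 0.336 to 2.08 CPM and was called between stages in controls without E11.5 control replicate 2 alone (-1.59, adjusted p = 0.0313). *Optc*, the opticin gene, which lies 2304 bases before *Prelp*, had a mean of 0.787 CPM.

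Of the fibrillar and fibril-associated collagens, which the proteoglycans bind, 13 of 14 were tested. At E11.5, 0 were called between the genotypes by edgeR (3 at an unadjusted p under 0.05, 2 called by DESeq2), with 11 of 13 below 0. At E12.5, 2 of 13 were lower in mutants, with 2.95% of all genes called. *Col2a1*, the cartilage and cushion collagen, was at 192 ± 25.1 CPM in controls and 107 ± 31.5 CPM in mutants (log2 fold change -0.84, SE 0.17, edgeR adjusted p = 0.0198), and *Col14a1*, whose product decorates collagen I fibrils, at 52.6 ± 11.3 and 33.5 ± 3.48 CPM (-0.65, SE 0.15, adjusted p = 0.0336). From E11.5 to E12.5 *Col14a1* rose in controls (1.39, SE 0.17, adjusted p = 0.0049) and in mutants (1.30, SE 0.14, adjusted p = 0.00906). *Col6a1* rose in controls (0.74, SE 0.17, adjusted p = 0.0288), and *Col6a3* (1.44, SE 0.21, adjusted p = 0.0275) and *Col1a1* (1.41, SE 0.24, adjusted p = 0.0461) rose in mutants. By DESeq2, *Col6a1* (0.84, adjusted p = 0.00108), *Col6a2* (0.71, adjusted p = 0.0208), *Col5a2* (0.64, adjusted p = 0.0319) and *Col1a2* (0.93, adjusted p = 0.0394) also rose in mutants. *Col2a1* fell in mutants by DESeq2 (-1.16, adjusted p = 0.000153), with all 12 libraries in one edgeR fit (-1.15, adjusted p = 0.0255) and with no filter (-1.15, adjusted p = 0.0272). *Col1a1*, the main chain of type I collagen, was at 701 ± 215 CPM in E11.5 controls and 324 ± 108 CPM in E11.5 mutants (-1.12, SE 0.28, adjusted p = 0.187), a difference that missed the test. It passed, as did *Col1a2*, by DESeq2 (-1.12, adjusted p = 0.00568, and -1.24, adjusted p = 0.00217) and with all 12 libraries in one edgeR fit (-1.11, adjusted p = 0.0413, and -1.23, adjusted p = 0.0247). With 1 library left out at a time, 0 to 2 collagens were called at E12.5 between genotypes (0 without control replicate 1 or mutant replicate 1 or 2), 1 to 3 between stages in controls and 0 to 4 in mutants. *Col2a1* lost its call in those 3 fits (adjusted p from 0.0548 to 0.0904), and *Col14a1* in each but that without control replicate 3 (adjusted p from 0.0619 to 0.126). With all 12 libraries in one fit both E12.5 calls were lost (adjusted p = 0.0938 and 0.0791). Between stages *Col14a1* lost its call in controls with sex as a covariate alone among the alternatives (0.98, adjusted p = 0.0837), while in mutants it was lost without E12.5 replicate 1 or 2 (adjusted p = 0.0728 and 0.0873). The calls of *Col6a3* and *Col1a1* were lost without any 1 of the E12.5 mutant libraries (adjusted p from 0.125 to 0.189) or E11.5 mutant replicate 2 (adjusted p = 0.0585 and 0.111), and that of *Col6a1* with sex as a covariate (adjusted p = 0.509) and without E11.5 control replicate 3 (0.0568) or E12.5 control replicate 1 or 2 (0.114 and 0.112). *Col6a3* was lost with all 12 libraries in one fit (adjusted p = 0.0584), and *Col1a1* with sex as a covariate (0.0508) or at a mean RPKM of at least 5 (0.0813).

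Genes that process collagen or build the sugar chains were read beside the shares of all genes called by edgeR. These shares were 0.115% and 2.95% between genotypes at E11.5 and E12.5. They were 5.28% and 0.556% between stages in controls and mutants, and 0% for the difference of mutant effects. An unadjusted p under 0.05 was found for 32.8% of genes between stages in controls and 4.49% for that difference. At such shares, 0 or 1 call in a list this short says little about the list. Of 13 tested genes for collagen processing and cross-linking, 0 were called by edgeR as fitted for each comparison, with 2 to 5 at an unadjusted p under 0.05 in each and at most 1 called by DESeq2. *Lox*, which cross-links collagen and elastin, was lower in E11.5 mutants by DESeq2 (-1.41, adjusted p = 0.00134) and in edgeR with all 12 libraries in one fit (-1.40, adjusted p = 0.0209) or no filter on low counts (-1.41, adjusted p = 0.0429). It was higher at E12.5 than at E11.5 in mutants by DESeq2 (1.44, adjusted p = 0.00133), with all 12 libraries in one fit (1.44, adjusted p = 0.0213) and without E11.5 mutant replicate 1 (1.94, adjusted p = 0.0254). *Adamts3*, a procollagen peptidase, was lower in E12.5 mutants without mutant replicate 3 (-0.80, adjusted p = 0.0438). *Serpinh1*, the collagen chaperone, was at 731 ± 28.1 CPM in E11.5 controls and 681 ± 29.9 CPM in E11.5 mutants (-0.10, SE 0.12, adjusted p = 0.873). Of 20 tested genes for glycosaminoglycan synthesis, 1 was called in 1 comparison. *B3gnt7*, which extends keratan sulphate chains such as those of fibromodulin and lumican, fell in controls from 13.0 ± 3.16 to 5.56 ± 0.683 CPM (-1.23, SE 0.21, adjusted p = 0.0129), a call lost with sex as a covariate (adjusted p = 0.346) and without E12.5 control replicate 1 or 2 (0.0751 and 0.0615). In the other 4 comparisons 0 were called by edgeR as fitted for each (0 to 2 at an unadjusted p under 0.05) and 0 or 1 by DESeq2. *Ust*, a uronyl sulphotransferase, was lower in E11.5 mutants by DESeq2 (-0.92, adjusted p = 0.0282) and with all 12 libraries in one fit (-0.91, adjusted p = 0.0310), and in E12.5 mutants by DESeq2 (-0.88, adjusted p = 0.0463) and with no filter in edgeR (-0.88, adjusted p = 0.0421). Of 9 tested TGF-beta ligands, receptors and latent binding proteins, *Ltbp4* was higher in E12.5 mutants (231 ± 42.6 CPM) than in E12.5 controls (150 ± 13.7 CPM, 0.62, SE 0.12, adjusted p = 0.0171). *Ltbp3* rose in controls with stage (1.06, SE 0.13, adjusted p = 0.0049). The first call was lost with all 12 libraries in one fit (0.62, adjusted p = 0.133) and without E12.5 control replicate 1 (0.57, adjusted p = 0.0784) or mutant replicate 1 (0.46, under 1.5-fold), the second with sex as a covariate (0.77, adjusted p = 0.125). At E11.5 *Ltbp4* was at 0.83 (SE 0.20, adjusted p = 0.164), and it passed by DESeq2 (0.82, adjusted p = 0.00881) and with all 12 libraries in one fit (0.83, adjusted p = 0.0336). *Ltbp3* rose in mutants with stage by DESeq2 (0.84, adjusted p = 0.00168), with all 12 libraries in one fit (0.84, adjusted p = 0.0275) and with no filter (0.84, adjusted p = 0.0417), and was lower in E12.5 mutants without control replicate 3 alone (-0.62, adjusted p = 0.00375). *Ltbp4* rose with stage in controls without E11.5 control replicate 2 alone (0.61, adjusted p = 0.00421). No other TGF-beta gene passed both thresholds under any setting.

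The 6 tested members include *Fmod*, which was chosen on this comparison, so their median is a description. Their median log2 fold change between genotypes was -0.998 at the first stage and -0.41 at the second. Over all genes tested the median was 0.00014 and -0.0018. The corresponding medians were -0.32 and -0.19 for the collagens, -0.16 and 0.09 for collagen processing, -0.06 and -0.06 for glycosaminoglycan synthesis and -0.02 and -0.07 for the TGF-beta list. Marker lists of the cells that make this matrix were set beside these values. Of all genes tested, 0.115% were called between genotypes at E11.5, 2.95% at E12.5 and 5.28% between stages in controls. At the first of these shares, 0 calls in a short list say little about it. Cushion and valve markers summed to 1777 to 1969 CPM in E11.5 controls, 1471 to 1901 CPM in E11.5 mutants, 1608 to 2226 CPM in E12.5 controls and 1473 to 1597 CPM in E12.5 mutants, which lay below the E12.5 controls without overlap, with 1 of 10 called (*Postn*, lower at E12.5). Epicardial markers summed to 619 to 917, 521 to 592, 417 to 609 and 593 to 656 CPM in the same order, with 0 of 8 called at E11.5 and 2 of 8 higher at E12.5 (*Krt19* and *Msln*). The epicardial sum was lower in mutants at E11.5 without overlap, overlapped at E12.5, and in controls 5 of its 8 genes fell and 1 rose with stage. Cartilage and tendon markers summed to 316 to 434 CPM in E11.5 controls and 209 to 371 CPM in E11.5 mutants, and to 222 to 269 CPM in E12.5 controls and 114 to 194 CPM in E12.5 mutants. *Col2a1* alone gave the 192 ± 25.1 CPM above in E12.5 controls, and *Acan*, *Matn1* and *Tnmd*, which define these tissues, were each under 1 CPM. Endocardial and endothelial markers were higher in E11.5 mutants (975 to 1345 CPM) than in E11.5 controls (783 to 939 CPM) and overlapped at E12.5, smooth muscle markers overlapped at E11.5 (2349 to 2870 and 2778 to 3384 CPM) and were higher in mutants at E12.5 (2118 to 2506 against 1481 to 2017 CPM), and erythroid markers were lower in E12.5 mutants (1576 to 2076 against 2870 to 4164 CPM). Neural crest and Schwann markers summed to 4.95 to 9.92 CPM, and liver markers to 0.664 to 55.2 CPM. The part of the cell mixture in the values of the proteoglycans was not tested.

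The genes whose level followed that of *Fmod* most closely over the 12 libraries, among 12270 genes, were *Ccdc90b* (Pearson's r of log2(CPM + 0.5) 0.97), *Zfp143* (0.94), *Ppapdc1b* (0.94), *Col8a1* (0.93) and *Cpz* (0.93). The 12 libraries share the 4 groups, so genes lower in mutants at both stages tend to rank high. *Col8a1*, a short-chain collagen, was at 12.7 ± 1.502, 5.43 ± 0.998, 9.09 ± 0.711 and 5.67 ± 1.43 CPM in E11.5 controls, E11.5 mutants, E12.5 controls and E12.5 mutants. *Cpz*, a secreted carboxypeptidase, was at 11.7 ± 0.714, 4.88 ± 0.983, 8.37 ± 1.99 and 5.73 ± 0.818 CPM in the same order. Both had their highest mean in E11.5 controls and a lower mean in mutants than in controls at either stage. At E12.5 the *Cpz* libraries overlapped, at 6.37 to 10.3 CPM in controls and 4.94 to 6.58 CPM in mutants. Neither gene passed the thresholds of edgeR as fitted for each comparison.

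Neighbouring genes outside the family were also read, and 0 of those tested were called between the genotypes. Of all genes tested, 0.115% were called at E11.5 and 2.95% at E12.5, so 0 calls among a few neighbours say little. *Btg2*, 26892 bases beyond *Fmod*, was at 0.36 (adjusted p = 0.293) at E11.5 and 0.40 (adjusted p = 0.0642) at E12.5, in the direction opposite to *Fmod*. *Nol8*, 28576 bases beyond *Ogn*, was at -0.11 (adjusted p = 0.904) and -0.12 (adjusted p = 0.467), and *Btg1*, 856799 bases before *Dcn*, at 0.11 (adjusted p = 0.908) and 0.10 (adjusted p = 0.491). *Podn* overlaps *Scp2* in the annotation, so that reads of the pair may not be separable.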

How the data were processed

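RNA was extracted from embryonic hearts and sequenced as paired ends. The platform is given as NextSeq in the methods and as GAIIx in the series' design text. Per the submitters' processing notes, reads were aligned with Bowtie2 (2) and analysed with DESeq, and the build was mm10. The counting program and its use of strand are not given in the sources used here. The authors deposited 1 table of scores named RPKM, in which each value is a read count multiplied by gene length and by a factor of the library, and 2 tables of comparisons, which hold fold changes and p-values (not used) and estimated counts averaged over the 3 libraries of a group, as deposited.

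Whole counts were recovered by dividing out length and factor (largest distance from a whole number 4.51e-10). For 604 genes outside those comparisons, mostly on chromosomes X and Y, a common divisor was used. Counts of the 6 libraries of a comparison were tested with edgeR 4.0.16 (R 4.3.3, quasi-likelihood, TMM, limma 3.58.1) over genes whose mean reached 0.5 RPKM, with Benjamini-Hochberg adjustment, and called at an adjusted p of at most 0.05 and 1.5-fold, the thresholds of the study. The difference between stages in the mutant effect was fitted over all 12 libraries. An adjusted p without a named tool is from edgeR. CPM were TMM-scaled over all 12 libraries. An exact permutation test of 3 against 3 libraries cannot go below a two-sided p of 0.1. The alternatives were no filter, a minimum of 5 RPKM, DESeq2 1.42.0, scaling by median ratios in edgeR, X and Y genes added, sex as a covariate, a replicate block, all 12 libraries in one fit, no fold threshold, and each library left out. The steps were tested on simulated data.

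The members, lists and tests were chosen with earlier results of these data known. Named were all members, tested relatives, at most 4 called genes of a list by size of change (or the 2 most abundant), the 5 genes most like *Fmod* by Pearson's r, and chromosomal neighbours. *Col1a1*, *Ltbp4* at E11.5, the call losses and the genes called under an alternative alone were named after their values were seen.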

Additional observations from a re-analysis of the deposited data

How the results depend on the processing

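The number of members called between genotypes was 1 at E11.5, with 3 when all 12 libraries were fitted together and 3 by DESeq2, and 0 to 1 with a library left out (0 without control replicate 1 or 3 or mutant replicate 1 or 2). At E12.5 it was 1, with 3 under no fold threshold, and 1 to 3 with a library left out (2 without control replicate 1 or 3, 3 without mutant replicate 2). Between stages in controls it was 0, with 1 under no filter, 1 under no fold threshold and 0 to 1 with a library left out (*Fmod*, without E12.5 control replicate 3). In mutants it was 3, with 1 at a mean RPKM of at least 5, 1 with all 12 libraries in one fit, and 0 to 3 with a library left out. For the difference between stages in the mutant effect it was 0 under every alternative run. The causes were not tested.

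The labels do not say whether replicate numbers pair the libraries. The correlation of deviations between same-numbered libraries was -0.03, 0.42 and 0.29 at E11.5 and between -0.12 and 0.17 in the other 3 comparisons. Differently numbered libraries were not compared, so these values do not settle the pairing. With a replicate block 1, 1, 0, 2 and 0 members were called in the 5 comparisons, *Lum* in mutants being lost (0.85, adjusted p = 0.0860). Of the lists, the block added *Col1a1*, *Col1a2* and *Lox* at E11.5, *Ust* at E12.5 and *Col6a3* between stages in controls.

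The signs that turned were of values that passed no test before or after the turn. In controls between stages, *Dcn* was 0.018 at a mean RPKM of at least 5, and with sex as a covariate *Dcn* was 0.19, *Omd* 0.11 and *Tsku* 0.018. *Ecm2* was 0.059 with sex as a covariate in the difference of mutant effects. With a library left out, the genotype values of *Aspn* ran from -1.49 to 0.12 at E11.5 (0.12 without control replicate 1) and from -0.25 to 0.032 at E12.5. The E11.5 genotype values ran from -0.49 to 0.14 for *Epyc* and -0.045 to 0.16 for *Tsku*. The stage values in controls ran from -0.14 to 0.10 for *Dcn* and -0.37 to 0.32 for *Omd*, and in mutants from -0.091 to 0.12 for *Fmod*, -0.72 to 0.089 for *Omd* and -0.14 to 0.088 for *Tsku*. The differences of mutant effects ran from -0.73 to 0.25 for *Omd*, -0.23 to 1.39 for *Aspn* (-0.23 without E11.5 control replicate 1), -0.22 to 0.82 for *Epyc* and -0.41 to 0.11 for *Ecm2*. Depth limited *Kera*, *Podn* and *Prelp*, with 0 to 46 reads per library.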
